A study of Mus musculus with 8 samples.

Results

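Transcripts of the motile cilium were measured in isolated lung club cells (secretory cells that line the small airways) of mice with and without Atgl, the lipase that begins triglyceride breakdown (gene symbol Pnpla2). The genes were chosen by symbol: on the mouse array, every probe set with exactly 1 annotated symbol that begins with Dnah, Dnai, Dnaaf, Cfap, Rsph, Tekt, Drc, Spag, Spef, Hydin or Ift was taken, and where a gene had several, the brightest over all 8 arrays stood for it. This gave 97 genes of 22180, and 81 of them had a mean log2 signal above the median of all probe set means (5.18) and were tested among 13112 genes. The choice used names and mean level over both genotypes, not the difference between them.

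The arrays compared 4 pools of Atgl KO/cTg cells with 4 pools of wt/cTg cells. Each Atgl KO/cTg pool came from 4 mice and each wt/cTg pool from 3 or 4, in all 16 and 14 mice aged 38 to 48 weeks, so replicates are pools of different animals, and p-values measure the spread between pools. Both genotypes carry cTg, which the labels do not expand, and the labels do not say in which cells Atgl was deleted. The animals were given standard chow and no treatment. Pnpla2 read 6.99, 7.16, 7.09 and 6.70 in the Atgl KO/cTg pools and 8.70, 8.63, 8.62 and 8.86 in the wt/cTg pools, a log2 difference of -1.72 (SE 0.11, limma adjusted p = 0.000116). The club cell marker Scgb1a1 had a mean of 12.92 ± 0.10 (SD, n = 4) without Atgl and of 12.99 ± 0.075 with it, but markers of other lung cells were also above the level filter. Array medians ran from 5.12 to 5.24. The wt/cTg replicate 4 pool stood apart in Xist, a transcript of the inactive X chromosome, with 3.75 against 9.34 to 10.67 in the other 7 pools.

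A motile cilium is a beating, microtubule-based hair of the cell surface, and in the airway it belongs to the multiciliated cells that lie between the club cells and move mucus. Its core, the axoneme, is a ring of doublet microtubules around a central pair. Dynein arms on the doublets slide them against each other, radial spokes and the nexin-dynein regulatory complex govern that sliding, and tektins run inside the doublets. Intraflagellar transport carries parts to the tip and back, also in the non-motile primary cilium that many cell types have.

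No cilium gene passed the genotype test, although most read slightly higher in Atgl KO/cTg. Of 81 tested genes, 72 lay above 0 (Atgl KO/cTg minus wt/cTg), or 88.9% against 47.8% of all genes tested, and the median log2 difference was 0.17, a 1.13-fold level, against -0.0073 over all genes tested. With limma and Benjamini-Hochberg adjustment over all genes, 0 of the 81 were called, where the share called over all genes was 0.0991% (0.0153% higher and 0.0839% lower), with adjusted p from 0.231 to 0.998. The unadjusted p was under 0.05 for 9 genes, 8 of them higher and 1 lower, where the background was 7.95% of all genes, 3.39% higher and 4.56% lower. Rsph14, 1 of the 8 and the gene with the smallest adjusted p, passed the level filter only through Atgl KO/cTg, where it was high. Among the 78 genes above the filter in both genotypes, 7 were higher and 1 lower, and the smallest limma adjusted p was 0.367. An exact permutation test over the 70 arrangements of the 8 arrays gave its smallest possible p, 0.0286, for 5 genes, Rsph14 among them. This p arises where the 2 groups do not overlap, which held for 4.35% of all genes tested. The 95% intervals of the differences had a median half-width of 0.33, so a difference of the size of the median could not be told from 0 for a gene of median precision.

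The size of this shift changed with the pools left out. Leaving out wt/cTg replicate 1 gave a median of 0.087, and leaving out Atgl KO/cTg replicate 4 gave 0.11, with 65 and 61 of 81 genes above 0. These pools had the lowest (6.72) and the highest (7.29) mean over the 81 genes, and were picked for that. Leaving out both narrows the difference by construction, so the result cannot show that the shift rests on them. Without both, the median was 0.0060, with 42 of 81 above 0. The count at an unadjusted p under 0.05, 9 over all pools, was 23 without Atgl KO/cTg replicate 1, 4 without replicate 2 and 5 without replicate 4 of that genotype, and 5 without wt/cTg replicate 1. The share of all genes at that p was counted only over all pools (7.95%), so these changes cannot be read as particular to cilium genes. Without the pool that stood apart in Xist the median was 0.18, with 73 of 81 above 0.

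**Figure D1:**
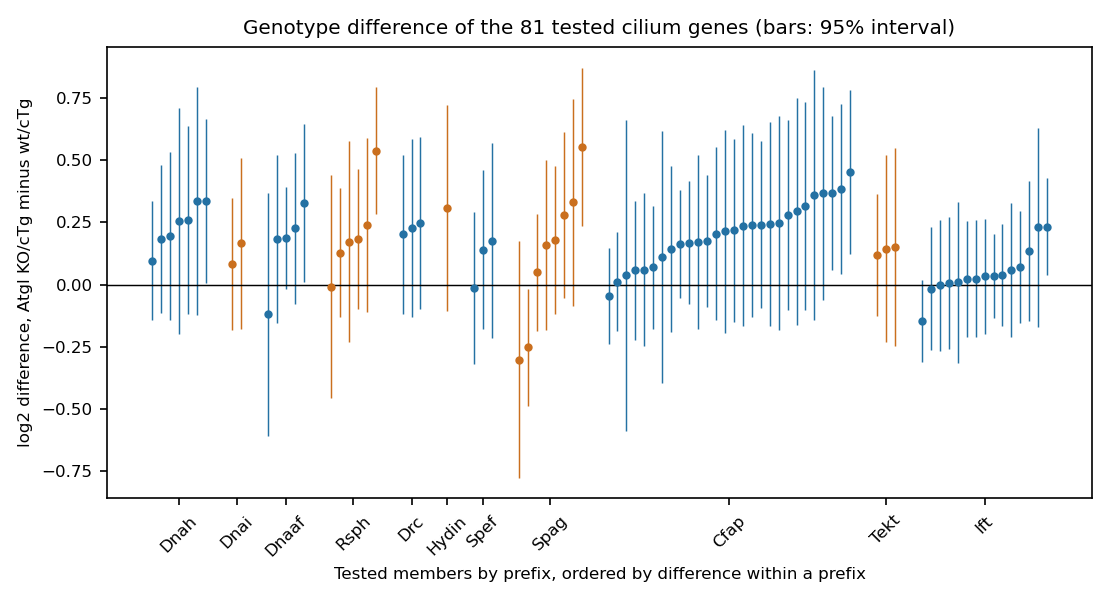
Genotype difference of each of the 81 tested cilium genes, as log2 signal in Atgl KO/cTg minus that in wt/cTg, grouped by symbol prefix and ordered by size within each; points are limma estimates and bars 95% intervals, 4 pools per genotype. The points lie mostly above 0, from -0.30 (Spag5, past the level filter only through wt/cTg) to 0.55 (Spag6l). The Ift genes lie close to 0 (median 0.033).

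The levels of these genes set the range over which a difference could be seen. Tested members had mean log2 signals of 5.20 to 10.03 with a median of 6.87, beside 7.09 for all genes tested. Signals of different probe sets are not levels of transcripts relative to each other, so this order describes the array only. The members with the highest signals were Ift43, a part of the transport particle (10.03), Rsph1, a radial spoke head protein (9.45), Ift20 (9.37) and Ift57 (9.14).

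The 16 genes at or below the filter included forms known from the sperm tail. The dynein heavy chains Dnah8 and Dnah17, the tektins Tekt3 and Tekt5 and the spoke protein Rsph6a were all left out, with mean signals of 3.76 (Dnah17) to 5.06 (Rsph6a). Of the 81 genes past it, 78 had a mean above the filter in both genotypes. Rsph14 and Spag16 passed only through Atgl KO/cTg and Spag5 only through wt/cTg, so these 3 were tested because of the group in which they were high. Over the other 78 genes, 70 lay above 0, the median was 0.17 and the smallest limma adjusted p was 0.367. Just below the filter lay Cfap47 (4.95), Rsph6a (5.06) and Spag4 (5.16), and just above it Spag16 (5.20), Spag5 (5.32) and Rsph14 (5.33). Spag6 read 4.45 and its close relative Spag6l 6.89. Pairs of similar copies (Spag6 and Spag6l, Rsph3a and Rsph3b, Spef1 and Spef1l, Dnaaf6 and Dnaaf6b) may share hybridisation, and which probes separate them was not examined here.

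**Figure D2:**
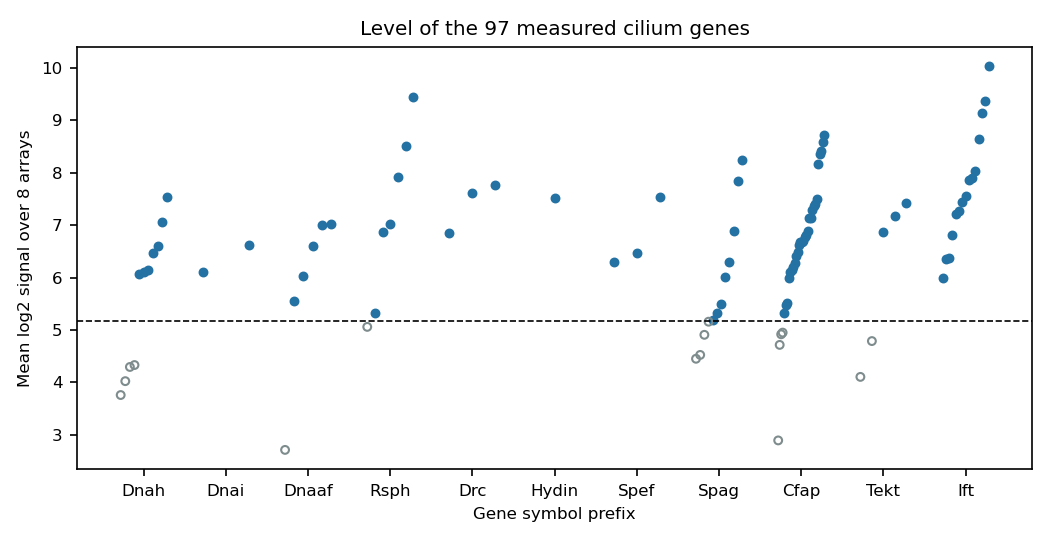
Mean log2 signal over 8 arrays (vertical axis) of the 97 measured cilium genes by symbol prefix; filled points passed the level filter, open points did not, and the dashed line is the median of all probe set means, 5.18. All 15 Ift genes lie above the line, while 4 of 11 Dnah and 2 of 5 Tekt genes lie at or below it.

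The axoneme genes were low and high in the same pools. For this description 63 tested genes were kept, leaving out the Ift genes and Spag5, Spag7 and Spag9. The names of these Spag genes group them with axoneme genes, although Spag5 is a mitotic spindle protein and Spag9 a scaffold of signalling and transport. The 63 are called axoneme genes here for short, although they include the Dnaaf assembly factors and Spag1, which act before the axoneme. Their mean log2 signal was 6.66, 7.01, 6.93 and 7.15 in Atgl KO/cTg replicates 1 to 4 and 6.46, 6.81, 6.86 and 6.80 in the wt/cTg replicates. The groups overlapped, since Atgl KO/cTg replicate 1 read below 3 of the 4 wt/cTg pools. Of these 63 genes, 48 had their lowest value in wt/cTg replicate 1 and 39 their highest in Atgl KO/cTg replicate 4, shares of 76.2% and 61.9%, beside 7.41% and 16.1% of all genes tested. The high in Atgl KO/cTg replicate 4 was not particular to them, since 9 of the 15 Ift genes (60%) were also highest there. Only 2 of the 15 Ift genes (13.3%) were lowest in wt/cTg replicate 1. In Atgl KO/cTg replicate 4, 62 of the 63 axoneme genes and 13 of the 15 Ift genes read above their own mean over the 8 arrays. In wt/cTg replicate 1, 2 of the 63 and 5 of the 15 did.

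The spread within a genotype differed between groups of genes. The median pooled within-group SD was 0.24 over the 63 axoneme genes, 0.14 over the 15 Ift genes and 0.17 over all genes tested. The widest range over the 8 arrays was that of Cfap58, from 5.37 in wt/cTg replicate 1 to 6.81 in Atgl KO/cTg replicate 2, and the narrowest that of Cfap97, from 6.84 to 6.98.

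**Figure D3:**
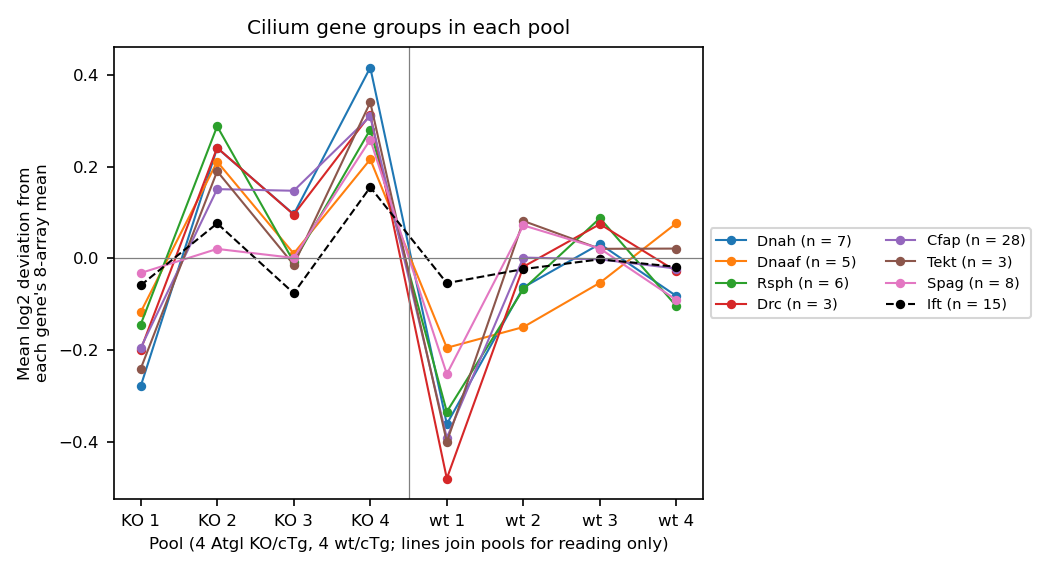
Mean log2 deviation of each prefix group from its genes' own 8-array means (vertical axis) in each pool (horizontal axis; KO, Atgl KO/cTg; wt, wt/cTg); the dashed black line is the Ift group. The axoneme groups share a low in wt/cTg replicate 1 (-0.39 for Cfap and -0.48 for Drc) and a high in Atgl KO/cTg replicate 4 (0.31 and 0.31), where Ift deviated by -0.05 and 0.16.

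Markers of multiciliated cells that the symbol rule does not take showed the same pools low and high. All 20 markers on that list were above the level filter, 18 lay above 0 with a median of 0.21, and none was called. Their mean ran from 8.75 to 9.23 in the Atgl KO/cTg pools and from 8.41 to 9.03 in the wt/cTg pools, lowest in wt/cTg replicate 1 and highest in Atgl KO/cTg replicate 4. Of these 20 genes, 8 are also on the lists of other cilium genes used below. Fewer ciliated cells in a pool and less of these transcripts per cell cannot be told apart in such bulk samples, and the part of ciliated cell content in the differences was not tested.

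Markers of other cells were measured in the same pools. All 10 alveolar type 2 markers lay below 0 (median -0.38) and 4 were called lower, against 0.0839% of all genes, with list means of 10.65 to 10.86 in Atgl KO/cTg and 11.06 to 11.50 in wt/cTg. All 10 fibroblast and smooth muscle markers lay below 0 as well (median -0.37, none called, means of 7.70 to 8.18 and 8.11 to 8.66). The endothelial markers had a median of -0.33 (6 of 7 below 0, means of 8.41 to 8.97 and 8.70 to 9.49) and the alveolar type 1 markers of -0.27 (7 of 8 below 0, 8.35 to 8.73 and 8.51 to 9.35), with none called. The 9 goblet cell markers all lay above 0 (median 0.59, none called, 8.64 to 9.70 and 7.55 to 8.77). Club cell markers had a median of 0.087 with 9 of 12 above 0 and none called (11.78 to 11.90 and 11.62 to 11.83). Basal cell (median -0.051) and leukocyte markers (-0.089) had overlapping means, 6.79 to 7.08 against 6.81 to 7.35 and 8.53 to 8.88 against 8.42 to 9.02. Ngfr and Ly6g were the markers below the filter on these 2 lists. How far these differences move with the cilium genes was not tested.

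**Figure D4:**
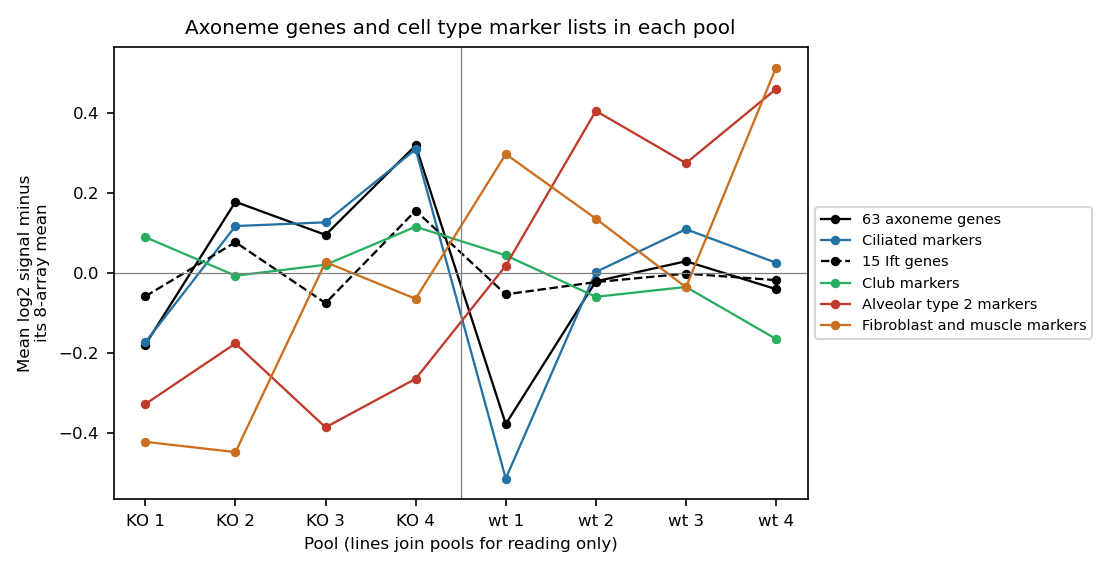
Mean log2 signal of the 63 axoneme genes, the 15 Ift genes and 4 cell type marker lists in each pool, each minus its own 8-array mean (KO, Atgl KO/cTg; wt, wt/cTg). The axoneme line and the ciliated marker line run close together, while alveolar type 2 markers are lower in all 4 Atgl KO/cTg pools (10.65 to 10.86 before centring) than in all 4 wt/cTg pools (11.06 to 11.50).

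Short stretches of promoter are given because regulatory factor X proteins, with Foxj1, are the known activators of ciliary genes. RefSeq promoters (GRCm38.p6, 250 bases before to 50 after a start) were found for 69 of the 81 tested genes. The X-box core GTTGCC, searched on both strands, was in at least 1 promoter of 29 of these 69 genes (42.0%), beside 15.1% of all tested genes with a promoter. The X-box pair, GTNNCC and GGNNAC with 2 bases between them, reads the same on both strands and can overlap a core, and it was in 12 (17.4%), beside 2.69%. The forkhead motif GTAAACA was in 2 (2.90%), beside 3.20%. Without the Ift genes the core was in 24 of 57 (42.1%) and the pair in 10 (17.5%), close to the shares with them. A link of these motifs to the pattern over the pools was not tested.

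The 150 bases before the annotated start of the gene are printed for 7 genes, 5′ to 3′ on the strand of the gene, with matches to these motifs in capitals. They were taken from the 27 of 78 promoters that begin exactly at the annotated start of their gene. Cores are in Dnah10 (chr5:124724935-124725084, plus strand), Cfap58 (chr19:47937562-47937711, plus strand), Tekt2 (chr4:126325689-126325838, minus strand) and Ift27 (chr15:78174082-78174231, minus strand):
Dnah10: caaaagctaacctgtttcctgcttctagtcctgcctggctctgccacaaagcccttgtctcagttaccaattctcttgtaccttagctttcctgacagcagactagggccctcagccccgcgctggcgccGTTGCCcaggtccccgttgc
Cfap58: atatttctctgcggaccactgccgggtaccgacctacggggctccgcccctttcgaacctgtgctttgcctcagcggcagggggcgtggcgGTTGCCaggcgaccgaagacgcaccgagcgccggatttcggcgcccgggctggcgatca
Tekt2: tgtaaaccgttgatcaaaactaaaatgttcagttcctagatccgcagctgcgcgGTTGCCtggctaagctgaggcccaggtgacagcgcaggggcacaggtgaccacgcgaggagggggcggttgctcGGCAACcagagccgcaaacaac
Ift27: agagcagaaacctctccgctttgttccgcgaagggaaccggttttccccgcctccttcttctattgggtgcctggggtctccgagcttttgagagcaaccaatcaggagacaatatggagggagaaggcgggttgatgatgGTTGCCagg
Counted from the start, with -1 as the base before it, the core began at -20 in Dnah10, -59 in Cfap58 and -9 in Ift27, and Tekt2 had 1 at -96 and 1 at -22. The pair is in Ift22 (chr5:136908000-136908149, plus strand), at -63 and -33, and in Ift57 (chr16:49699144-49699293, plus strand), at -87, where it overlaps a core and a further core lies at -60:
Ift22: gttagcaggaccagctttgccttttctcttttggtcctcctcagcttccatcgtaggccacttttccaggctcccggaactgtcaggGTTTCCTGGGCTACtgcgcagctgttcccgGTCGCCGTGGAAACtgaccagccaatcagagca
Ift57: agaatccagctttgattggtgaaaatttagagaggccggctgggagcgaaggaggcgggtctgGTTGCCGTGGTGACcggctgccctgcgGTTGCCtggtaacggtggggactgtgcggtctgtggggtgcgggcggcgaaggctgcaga
Spag6l (chr16:16829364-16829513, minus strand), with the largest difference of the 81 genes, had no match in this stretch:
Spag6l: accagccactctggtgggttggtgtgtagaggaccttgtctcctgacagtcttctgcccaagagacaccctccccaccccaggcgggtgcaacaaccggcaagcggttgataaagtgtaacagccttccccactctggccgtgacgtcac
A match is a stretch of letters and not a shown binding site, and no match says only that these letters are not in the window.

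The dynein heavy chains, the motor subunits of the arms, lay above 0 in all 7 tested of 11 measured, with a median of 0.26, a range of 0.10 to 0.34 and none called (limma adjusted p 0.616 to 0.872). The outer arm chains Dnah5, Dnah9 and Dnah11 had differences of 0.33, 0.26 and 0.20. The inner arm chain Dnah10 read 5.83, 6.51, 6.26 and 6.36 in Atgl KO/cTg, against 5.70, 5.95, 5.99 and 5.97 in wt/cTg. Only its Atgl KO/cTg replicate 1 fell within the wt/cTg range, and the difference was 0.34 (SE 0.15, limma adjusted p = 0.616). Dnah6, an inner arm chain and the brightest of the family here, read 7.10, 7.83, 7.68 and 8.10 in Atgl KO/cTg against 6.97, 7.57, 7.65 and 7.48 in wt/cTg. Its 2 groups overlapped, with a difference of 0.26 (SE 0.21, limma adjusted p = 0.803). Dnah1 and Dnah2, further inner arm chains, had 0.18 and 0.10.

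The intermediate chains of the outer arm, Dnaic1 and Dnaic2, were both measured and both lay above 0 without being called. Dnaic1 read 6.62, 6.64, 6.72 and 6.83 in Atgl KO/cTg, against 6.10, 6.84, 6.77 and 6.43 in wt/cTg. The Atgl KO/cTg pools lay close together, inside the wider wt/cTg range. The difference was 0.17 (SE 0.16, limma adjusted p = 0.838), and that of Dnaic2 was 0.083.

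The assembly factors, which build dynein arms in the cytoplasm before they enter the cilium, had 4 of 5 tested genes above 0 and a median of 0.19. Dnaaf3 read 5.99, 6.50, 5.97 and 6.33 in Atgl KO/cTg, against 5.72, 5.78, 5.92 and 6.07 in wt/cTg, with a difference of 0.33 (SE 0.14, limma adjusted p = 0.615). A second probe set of Dnaaf3 gave -0.039, so its direction depended on the probe set. Dnaaf1 read 6.93, 7.25, 7.18 and 7.19 against 6.52, 7.01, 7.07 and 7.04, where wt/cTg replicate 1 lay far below the other wt/cTg pools (difference 0.23, SE 0.14, limma adjusted p = 0.739). Dnaaf5 was the factor whose groups did not overlap, with 7.03, 7.18, 7.11 and 7.04 against 6.95, 6.99, 6.82 and 6.85. It was higher by 0.19 (SE 0.093, limma adjusted p = 0.658, exact permutation p = 0.0286). Dnaaf6b lay below 0 (-0.12).

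Groups of 4 pools that did not overlap were found for 3 genes higher in Atgl KO/cTg (Dnaaf5, Rsph14 and Spag6l) and 2 lower (Spag9 and Ift20). Over all genes tested such groups made up 4.35%, with 1.74% higher and 2.62% lower. Rsph14 passed the level filter only through the group in which it was high, and 2 genes higher and 2 lower remained among the 78 that passed in both.

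The radial spoke genes had 5 of 6 tested members above 0, with a median of 0.18 and none called. Rsph14 lay just above the level filter, which all 4 wt/cTg pools were below, so its difference is given as a description. It read 5.44, 5.64, 5.52 and 5.79 in Atgl KO/cTg, against 4.89, 5.09, 5.15 and 5.11 in wt/cTg. Every Atgl KO/cTg pool read above every wt/cTg pool, and the means differed by 0.54. Tested without a level filter, among 22180 genes, Rsph14 was not called (limma adjusted p = 0.319). Rsph1, the spoke head protein with the highest signal, read 9.46, 9.44, 9.58 and 9.70 against 8.98, 9.46, 9.66 and 9.34 (difference 0.18, SE 0.13, limma adjusted p = 0.774). The other spoke head genes Rsph9 and Rsph4a had 0.13 and 0.17. The stalk genes Rsph3a and Rsph3b had 0.24 and -0.0081, and Rsph3b spread widely in Atgl KO/cTg (6.51 to 7.56) and hardly in wt/cTg (7.01 to 7.05).

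The nexin-dynein regulatory complex, the link between neighbouring doublets, was represented by Drc1, Drc3 and Drc7, with differences of 0.23, 0.20 and 0.25. Drc7 read 7.49, 8.07, 7.86 and 8.13 in Atgl KO/cTg, against 7.30, 7.83, 7.78 and 7.65 in wt/cTg. The groups overlapped through Atgl KO/cTg replicate 1 (SE 0.16, limma adjusted p = 0.757).

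Among the genes of the central pair, Spag6l had the largest difference of the 81 genes. It read 6.93, 7.28, 7.07 and 7.39 in Atgl KO/cTg, against 6.31, 6.79, 6.82 and 6.53 in wt/cTg. The groups did not overlap, with a difference of 0.55 (SE 0.15, 95% interval 0.23 to 0.87, limma adjusted p = 0.367, exact permutation p = 0.0286). Hydin, a large protein of a central pair projection, read 7.05, 7.93, 7.71 and 8.0 against 7.12, 7.45, 7.53 and 7.35. Atgl KO/cTg replicate 1 was the lowest of all 8 pools and the other 3 Atgl KO/cTg pools were the highest (difference 0.31, SE 0.19, limma adjusted p = 0.742). Spag17 had 0.33. Spag16, which passed the level filter only through Atgl KO/cTg, had 0.18.

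Spef2, a central pair protein also needed in the sperm tail, read 6.16, 6.64, 6.54 and 6.90 against 6.19, 6.36, 6.80 and 6.19 (difference 0.18, SE 0.18, limma adjusted p = 0.847). Spef1, which bundles microtubules, read 7.34, 7.32, 7.61 and 7.87 against 7.32, 7.48, 7.71 and 7.68, a difference of -0.014 (SE 0.14, limma adjusted p = 0.991). Both pairs of groups overlapped over most of their range.

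The Spag prefix also took in genes outside the axoneme, and the 2 Spag genes below 0 were of that kind. Spag9 read 8.05, 7.83, 8.27 and 8.28 in Atgl KO/cTg, against 8.29, 8.35, 8.44 and 8.37 in wt/cTg. All Atgl KO/cTg pools lay below all wt/cTg pools, with a difference of -0.25 (SE 0.11, limma adjusted p = 0.599, exact permutation p = 0.0286). Spag5, which passed the level filter only through wt/cTg, had -0.30, and Spag7 had 0.049. Spag1, a factor of dynein arm assembly, had 0.16 and Spag8 0.28.

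**Figure D5:**
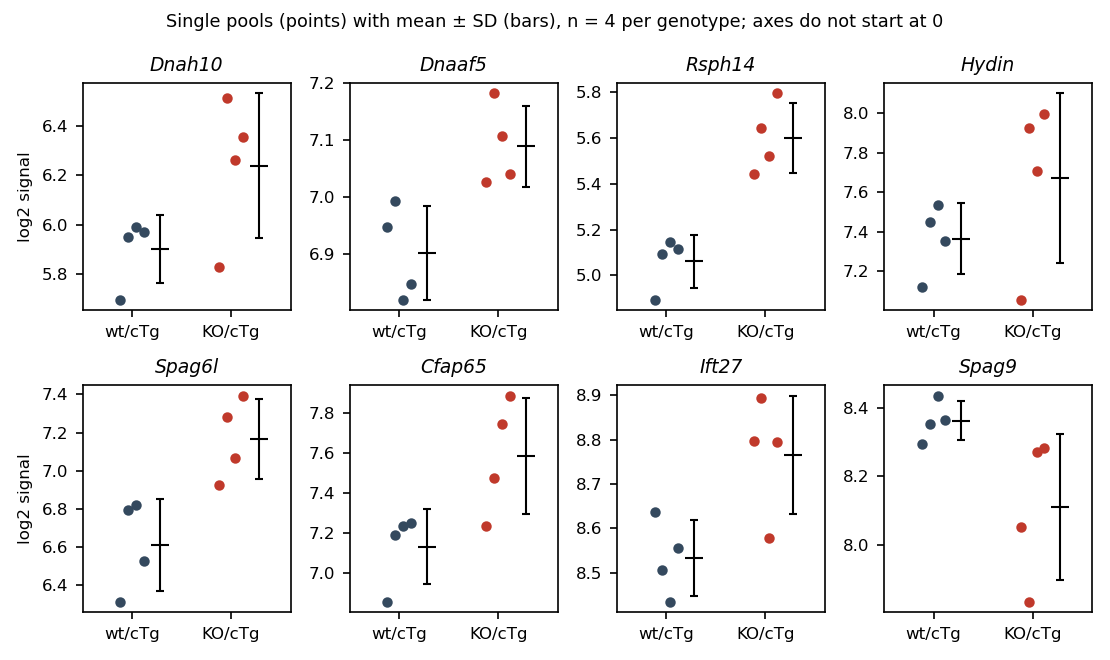
log2 signal of 8 cilium-prefix genes in single pools (points; wt/cTg on the left, Atgl KO/cTg, shown as KO/cTg, on the right), with mean ± SD beside them (n = 4); the vertical axes do not start at 0. The groups are apart for Dnaaf5, Rsph14 and Spag6l (higher in Atgl KO/cTg) and Spag9 (lower) and overlap for Dnah10, Hydin, Cfap65 and Ift27.

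The Cfap prefix covers proteins of many places in the cilium, and 28 of 32 measured were tested. Of these, 27 lay above 0 with a median of 0.22 and none called. Cfap65 read 7.24, 7.48, 7.75 and 7.89 in Atgl KO/cTg, against 6.86, 7.19, 7.24 and 7.25 in wt/cTg. Its difference, the largest of the prefix, was 0.45 (SE 0.15, limma adjusted p = 0.478), and the groups overlapped through Atgl KO/cTg replicate 1. Cfap57 and Cfap73 had 0.38 and 0.37, both at an unadjusted p under 0.05. Cfap36, the brightest, read 8.71, 8.56, 8.69 and 8.91 against 8.63, 8.63, 8.76 and 8.80 and hardly differed (0.012, SE 0.091, 95% interval -0.19 to 0.21, limma adjusted p = 0.988). Genes known from the airway axoneme such as Cfap43, Cfap44, Cfap53 and Cfap206 had 0.25, 0.29, 0.11 and 0.22. Cfap97 was the 1 tested Cfap gene below 0 (-0.046).

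The tektins, filaments inside the doublet wall, had differences of 0.12 to 0.15 and none called. Tekt1 read 7.06, 7.22, 7.26 and 7.37 in Atgl KO/cTg, against 6.86, 7.21, 7.19 and 7.17 in wt/cTg (SE 0.11, limma adjusted p = 0.837). Tekt2 read 7.10, 7.68, 7.29 and 7.91 against 7.07, 7.44, 7.41 and 7.50 (SE 0.17, limma adjusted p = 0.881), and its second probe set gave 0.26. Tekt4 read 6.57, 7.13, 6.86 and 7.20 against 6.32, 7.06, 6.92 and 6.85 (SE 0.18, limma adjusted p = 0.883). In all 3 the groups overlapped, and wt/cTg replicate 1 was the lowest pool.

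Intraflagellar transport genes lay close to 0. All 15 measured were tested, 12 lay above 0 and 3 below, and the median was 0.033 (1.02-fold). Ift43, a subunit of the complex that serves the return from the tip, read 9.88, 10.03, 9.97 and 10.29 in Atgl KO/cTg, against 9.78, 10.11, 10.16 and 10.03 in wt/cTg, a difference of 0.024 (SE 0.11, 95% interval -0.21 to 0.26, limma adjusted p = 0.981). Ift122 and Ift140 of the same complex had 0.033 and 0.14. In the complex that serves outward transport, Ift27, a small GTPase, read 8.80, 8.89, 8.58 and 8.79 against 8.64, 8.51, 8.43 and 8.55. This was the largest difference of the prefix (0.23, SE 0.088, limma adjusted p = 0.524), and the groups overlapped through Atgl KO/cTg replicate 3. Ift20, which also has a role at the Golgi, read 9.41, 9.14, 9.30 and 9.34 against 9.41, 9.47, 9.47 and 9.42, with all Atgl KO/cTg pools below all wt/cTg pools, the nearest equal at this rounding (-0.15, SE 0.075, limma adjusted p = 0.660). Ift88, Ift81 and Ift172 had 0.0087, 0.0055 and 0.022. The sign of the Ift median depended on 1 pool, since it was -0.024 without Atgl KO/cTg replicate 4. Medians of other prefixes moved as well. Without that pool and wt/cTg replicate 1, a choice made after seeing the data, those of Dnai (-0.027), Spef (-0.037), Tekt (-0.087) and Ift (-0.021) lay below 0. The medians of the remaining prefixes then ran from 0.011 (Rsph) to 0.12 (Hydin).

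Other cilium genes, from lists without the genes that the symbol rule takes, had no called member either. Of 29 tested axoneme genes named outside the prefixes, 28 lay above 0 with a median of 0.20 and none was called. Among them Dynlrb2, a dynein light chain with the highest signal, had 0.036 (SE 0.16, limma adjusted p = 0.980), and Lrrc23, a spoke protein, had 0.34 (SE 0.12, limma adjusted p = 0.492) with groups that did not overlap. Of 8 genes of arm assembly outside the prefixes, 6 lay above 0 (median 0.19). Partners and motors of intraflagellar transport had 12 of 17 above 0 (median 0.066), and the BBSome list 6 of 10 (0.019). The BBSome is a cargo adaptor of the cilium, and Bbs10, Bbs12 and Mkks on this list are not subunits of it.

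In the list of multiciliated cell fate and transcription, 10 of 12 tested genes lay above 0 with a median of 0.17, and none was called. Foxj1, the transcription factor that switches on motile cilium genes, read 8.20, 8.51, 8.41 and 8.48 in Atgl KO/cTg, against 7.76, 8.0, 8.21 and 8.21 in wt/cTg. The groups met at the lowest Atgl KO/cTg pool, with a difference of 0.35 (SE 0.12, limma adjusted p = 0.478, exact permutation p = 0.0857). Deup1, a protein of the structures on which multiciliated cells make their many centrioles, read 7.08, 6.93, 6.53 and 6.90 against 6.35, 6.23, 6.35 and 6.15. Its groups did not overlap, with a difference of 0.59 (SE 0.13, limma adjusted p = 0.231, exact permutation p = 0.0286). Deup1 was highest in Atgl KO/cTg replicate 1, a pool in which the axoneme genes were low.

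The study's design speaks of 4 sets of Atgl KO/cTg and wt/cTg samples, but no label assigns a sample to one of them. The mouse numbers in the sample titles fall into 4 runs, which no label calls a batch or a set and which do not each hold both genotypes. Within the run that held Atgl KO/cTg replicates 1 and 2 and wt/cTg replicate 1, the median over the 81 genes was 0.32 with 71 above 0. Over all genes tested it was -0.087 there. In the 2 runs with 1 pool of each genotype the 81-gene median was 0.11 (50 of 81) and 0.28 (75 of 81). Over all genes tested the values were -0.010 and 0.061. The run with 0.32 held the pool lowest in mean over the 81 genes. The run with 0.28 held the pool highest in it, beside the pool that stood apart in Xist. Only the run with 0.11 held none of these pools, so the runs do not repeat the shift independently of them. The fourth run held wt/cTg replicate 3 alone. With the runs as a block in limma, the median was 0.27, 0 genes were called and the unadjusted p was under 0.05 for 19, against 9 without the block. The share of all genes at that p was not counted with the block. Single pools give no test within a run.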

How the data were processed

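Per the labels' protocols, RNA came from a miRNeasy Micro kit with on-column DNase, and whole-transcript amplification (NuGEN Ovation Pico WTA) started from 50 ng before biotin labelling. The authors deposited a table of log2 signals by probe set, taken here without change. That the scale is log2 was read from the values (1.85 to 13.54). The software, with any background correction and normalization, was not given in the sources used here, and no detection calls were used, so signal above background was not tested. The number of arrays limits the precision.

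Of 41345 probe sets, 23521 had 1 symbol in the platform annotation, 1814 several and 16010 none. Names came from the first kind, and 7 of the 97 genes had more than 1 probe set. Updating symbols through gene IDs left the same 81 genes.

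The genotype test was that of limma 3.58.1 under R 4.3.3 (linear model, moderated with a variance trend, two-sided, Benjamini-Hochberg over 13112 genes, threshold 0.05), beside an exact two-sided permutation test for single genes. Replicate numbers follow sample order and pair nothing. The steps were tested on simulated data. Genes described with values in every pool were, per prefix, those with the highest mean, the smallest p and the largest difference. Other members are named as part of a count or role, and Dnaaf5 and Ift20 were described in full after their values were seen, because their groups did not overlap. Of each further list, the genes with the highest mean and smallest p could be named, and Foxj1 always. The members, lists, motifs and promoters shown were chosen with earlier results of these data known. Figures were drawn with matplotlib 3.10.9.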

Additional observations from a re-analysis of the deposited data

Results flagged for a closer look

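In 4 of 42 groups of 4 pools checked (20 genes and the mean over all members, in each genotype), 1 pool lay far from the other 3, where chance gives about 1 in 20. All 4 were the value of wt/cTg replicate 1, the pool lowest in the axoneme genes, and the genes share that array, so they do not count as separate events. Dnah10 read 5.70 there, Dnaaf1 6.52, Cfap65 6.86 and Tekt1 6.86, each below the other 3 wt/cTg pools.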

How the results depend on the processing

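With limma, 0 of the 81 genes were called in all 18 settings. An unadjusted exact permutation p under 0.05 was found for 5, those whose groups did not overlap, beside 4.35% of all genes tested. Leaving out 1 pool at a time gave medians of 0.087 to 0.23 and 61 to 77 genes above 0. Without wt/cTg replicate 1 together with replicate 4 of Atgl KO/cTg, a choice made after seeing the data, the median was 0.0060 and 42 genes lay above 0. These pools had the lowest and highest mean over the 81 genes, so leaving out both narrows the difference by construction. In that setting Dnah6 (-0.033), Dnaic1 (-0.020), Spef2 (-0.0015), Cfap36 (-0.079), Tekt2 (-0.087), Tekt1 (-0.010), Tekt4 (-0.092) and Ift43 (-0.14) turned below 0. Median centring, which moved the median of all genes by -0.030, turned Cfap36 (-0.018) and Ift43 (-0.0064). Array weights turned Spef1 (0.0066) and Ift43 (-0.018), and the runs as a block Spef1 (0.097). Leaving out 1 pool at a time gave differences that crossed 0 for Spef1 (-0.12 to 0.058), Cfap36 (-0.053 to 0.066), Tekt4 (-0.0058 to 0.27) and Ift43 (-0.059 to 0.077). None of these values was called, 11 of 20 genes kept their sign throughout, and the cause was not tested.

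Genes at an unadjusted p under 0.05 numbered 4 to 23, with 5 after centring, 19 with the block and 23 without Atgl KO/cTg replicate 1. Apart from the main setting, the share of all genes at that p was not counted beside them. No paired analysis was possible because the labels carry no replicate numbers and do not name the members of the 4 sets, so the runs of mouse numbers were the only block fitted. Over the 78 genes above the filter in both genotypes, a choice made after seeing the data, 70 lay above 0. Signal over background was not examined, which limits what low values show.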
